A study of Mus musculus with 8 samples.

Results

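The 28 genes described here encode subunits of the nuclear RNA polymerases I, II and III of the mouse. They were chosen by symbol, as the protein-coding genes named *Polr1*, *Polr2* or *Polr3* followed by letters, and number 28 of 54532 genes in the table and of 22046 that are protein-coding. Of these, 5 are *Polr1* genes, 13 are *Polr2* genes and 10 are *Polr3* genes. All 28 had enough counts to be tested, among 13560 genes tested in all.

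RNA was sequenced from bone marrow LSK cells (lineage-negative, SCA-1+, C-KIT+, the gate that holds hematopoietic stem and multipotent progenitor cells) sorted by the surface protein EpCAM. Both fractions came from C57BL/6 *Zeb1-/-* mice, in which floxed *Zeb1* alleles had been deleted by *Mx1-Cre* after pIpC injection, and were taken 14 days after the last dose from animals of 8 to 12 weeks. *Mx1-Cre* is induced by interferon and also acts in cells of the marrow niche. There were 4 libraries of *Zeb1-/- EpCAM+* cells and 4 of *Zeb1-/- EpCAM-* cells, with total counts of 14114491 to 17073546, and no library with intact *Zeb1* was analysed here. The comparison asks how the EpCAM-bearing cells that appear without *Zeb1* differ from LSK cells of the same genotype that lack EpCAM.

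The labels were checked first. *Epcam* had 3580, 2831, 3053 and 2818 counts in EpCAM+ replicates 1 to 4, against 144, 51, 21 and 17 counts in EpCAM- replicates 1 to 4. The fractions did not overlap, and EpCAM- replicate 1 held the most *Epcam* counts of its fraction. *Zeb1* had 261 to 373 counts per EpCAM+ library and 129 to 214 per EpCAM- library. These counts cover the whole gene and cannot show whether the deleted part is absent.

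RNA polymerase I makes the large ribosomal RNA precursor, polymerase II makes messenger RNA, and polymerase III makes transfer RNA, the small 5S ribosomal RNA and other short transcripts. Each enzyme has a pair of large catalytic subunits, a set of small subunits common to all of them, and peripheral subunits of its own, such as a stalk that contacts the emerging RNA. Blood progenitors raise ribosome production and transcription as they leave quiescence and divide, so these enzymes are commonly read beside the cell cycle.

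Lower levels in the EpCAM+ fraction were found for 4 of 5 *Polr1*, 5 of 13 *Polr2* and 5 of 10 *Polr3* genes, and none was higher except *Polr3gl* under 2 other scalings. With edgeR's quasi-likelihood test and Benjamini-Hochberg adjustment over all 13560 genes, 14 of 28 passed an adjusted p of 0.05 with lower levels in EpCAM+ cells. Among all genes tested 42.6% passed in either direction, 20.8% lower and 21.8% higher. In 15 of the 28 genes every EpCAM+ library lay below every EpCAM- library in CPM (read counts scaled to a common effective library size), a pattern found in 20% of all genes, and in 0 of 28 was every EpCAM+ library above, against 20.1%. The count of 0 higher genes was also 0 at an unadjusted p under 0.05 and with DESeq2. Scaling by upper quartiles or by library totals left 8 and 6 genes lower, with 1, *Polr3gl*, higher in each. These are 28.6% and 21.4% of the subunit genes, beside 15.4% and 15.2% of all genes tested that were lower under the same scalings. Shares among genes of like abundance were not computed under these scalings. Genes with every EpCAM+ library below then numbered 8 and 9 of 28, beside 14.7% and 14.8% of all genes, so overlap between fractions is given below for CPM as first scaled.

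The differences were small. The median log2 fold change of the 28 genes (EpCAM+ over EpCAM-) was -0.23, against 0.02 for all genes tested, and the 27 genes given singly ranged from -0.58 to 0.29. In 24 of 28 the fitted value was below 0, as in 48% of all genes tested. Under upper quartiles or library totals it was 23 of 28, with *Polr2i* at 0.01, beside 40.6% and 40.7% of all genes. Under upper quartile scaling the median of the subunit genes was -0.14 and that of all genes 0.11. The same scaling turned the split of all calls from 51.2% higher to 63.6% higher. Genes of this abundance were more often lower than genes at large. Of 8636 protein-coding genes with a mean of at least 10 CPM, 27.9% were lower and the median log2 fold change was -0.07. This level was chosen after seeing the data, and all 28 subunit genes reach it.

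**Figure D1:**
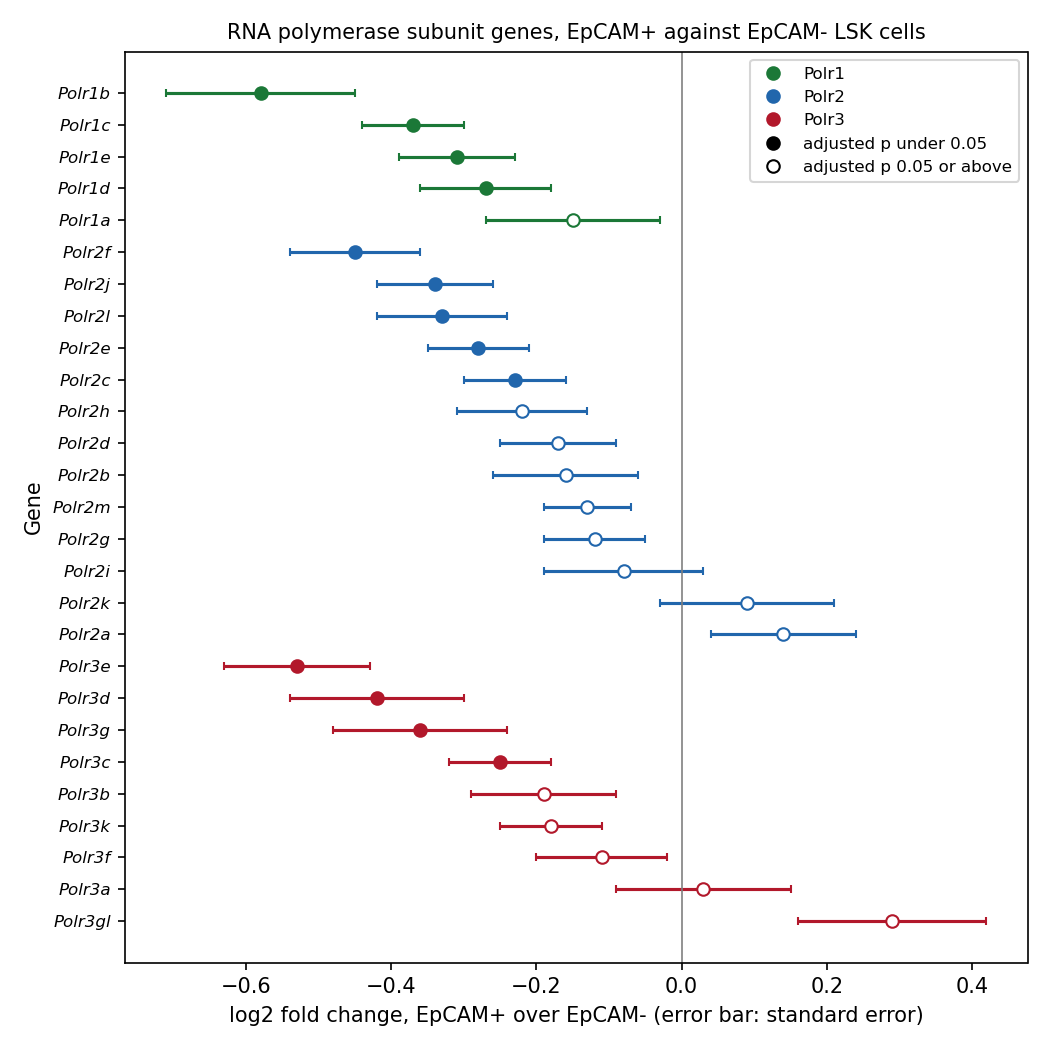
Log2 fold change of 27 subunit genes between the EpCAM+ and EpCAM- fractions (x axis, with standard errors) by gene (y axis) and polymerase number (color), 4 libraries per fraction. Filled points passed an adjusted p of 0.05: 13 genes, all left of 0, with *Polr1b* at -0.58 and *Polr3e* at -0.53 farthest.

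Polymerase I was represented by 5 genes, of which 4 were lower (median log2 fold change -0.31). This share, 80%, stands beside 20.8% of all genes tested and 27.9% of protein-coding genes of at least 10 CPM. *Polr1b*, the second-largest catalytic subunit, had 38.8, 44.4, 45.2 and 40 CPM in EpCAM+ replicates 1 to 4 and 55.6, 51.8, 64.2 and 80.5 CPM in EpCAM- replicates 1 to 4. Every EpCAM- library was above every EpCAM+ one, with EpCAM- replicate 4 well above its own fraction. The log2 fold change was -0.58 ± 0.13 (SE, adjusted p = 0.00584). *Polr1c* and *Polr1d* encode the assembly pair that polymerases I and III have in common. *Polr1c* had 71.1, 79.9, 70.2 and 69.9 CPM in the EpCAM+ libraries and 87.3, 99.8, 94.4 and 95.1 CPM in the EpCAM- libraries. The fractions did not overlap, and EpCAM+ replicate 2 lay above the other 3 of its fraction (log2 fold change -0.37 ± 0.07, adjusted p = 0.00283). *Polr1d* averaged 111 ± 7.03 CPM (SD, n = 4) in EpCAM+ and 133 ± 14.7 CPM in EpCAM- libraries, without overlap (log2 fold change -0.27 ± 0.09, adjusted p = 0.032).

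*Polr1e* encodes a subunit of the polymerase I dimer that resembles initiation factors of polymerase II. It had 55, 54.8, 54.3 and 45.6 CPM in EpCAM+ replicates 1 to 4 and 63.5, 64.4, 66.7 and 64.8 CPM in EpCAM- replicates 1 to 4. The EpCAM- values were nearly equal, and EpCAM+ replicate 4 was the lowest library (-0.31 ± 0.08, adjusted p = 0.0102). *Polr1a*, the largest subunit, ranged over 32.8 to 41.9 CPM in EpCAM+ and 35.7 to 47.1 CPM in EpCAM- libraries. Its difference of -0.15 ± 0.12 did not pass (adjusted p = 0.346). Each EpCAM+ library was below the EpCAM- library of its number (log2 differences -0.03, -0.12, -0.26 and -0.16 for replicates 1 to 4). The paired fit did not pass either (adjusted p = 0.13). The *Polr1d* call was lost when any of EpCAM+ replicates 1, 3 and 4 or EpCAM- replicates 2 and 3 was left out, with adjusted p of 0.0566, 0.0902, 0.0719, 0.06 and 0.0647. It was also lost under upper quartiles and library totals (0.128 and 0.126), and over all alternatives its adjusted p ran from 0.00853 to 0.128. The *Polr1e* call was lost under library totals (adjusted p = 0.0653, range over the alternatives 0.00187 to 0.0653).

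The *Polr2* symbols cover 5 small subunits built into all 3 enzymes and 8 that belong to polymerase II alone. Of the common subunits 3 of 5 were lower, with a median of -0.28. That is 60%, beside 20.8% of all genes tested and 27.9% of protein-coding genes of at least 10 CPM. *Polr2f* had 97.6, 115, 110 and 109 CPM in the EpCAM+ libraries and 125, 152, 151 and 161 CPM in the EpCAM- libraries. The fractions were apart, and replicate 1 was the lowest library in each (-0.45 ± 0.09, adjusted p = 0.00301). *Polr2l* ranged over 73.9 to 92.6 CPM against 96.6 to 117 CPM (-0.33 ± 0.09, adjusted p = 0.0167), and *Polr2e* over 222 to 244 CPM against 254 to 305 CPM (-0.28 ± 0.07, adjusted p = 0.0124). Neither passed under upper quartiles or library totals, where the adjusted p was 0.0647 and 0.0592 for *Polr2l* (range over the alternatives 0.00248 to 0.0647) and 0.0583 and 0.0514 for *Polr2e* (range 0.000951 to 0.0583). *Polr2h* had a log2 fold change of -0.22 and an adjusted p of 0.0793, and its fractions overlapped; it passed with the replicates paired (adjusted p = 0.0231) and without EpCAM- replicate 1 (0.0219), over a range of 0.0219 to 0.271. *Polr2k* lay at 0.09 (adjusted p = 0.578), with 55.5 to 76.9 CPM in EpCAM+ and 59.2 to 79.5 CPM in EpCAM- libraries.

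Of the subunits of polymerase II alone, 2 of 8 were lower, and the median was -0.14. That share, 25%, is near the 20.8% of all genes tested and below the 27.9% of protein-coding genes of at least 10 CPM. Both are assembly subunits on which the enzyme is built. *Polr2j* had 105, 117, 104 and 114 CPM in EpCAM+ replicates 1 to 4 and 124, 149, 136 and 150 CPM in EpCAM- replicates 1 to 4. No EpCAM+ library reached the lowest EpCAM- value (-0.34 ± 0.08, adjusted p = 0.00691). Its partner *Polr2c* ranged over 132 to 146 CPM against 152 to 170 CPM (-0.23 ± 0.07, adjusted p = 0.0193). That call was lost without EpCAM+ replicate 3 or EpCAM- replicate 3 (adjusted p = 0.061 and 0.0529) and under upper quartiles or library totals (0.112 and 0.124), over a range of 0.00377 to 0.124.

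The catalytic subunits of polymerase II did not pass. *Polr2a*, which carries the C-terminal repeats that are phosphorylated during transcription, had 45.8, 51, 49.1 and 55.3 CPM in EpCAM+ and 45.8, 38.3, 46.3 and 52 CPM in EpCAM- replicates 1 to 4. The ranges overlapped, and the log2 fold change was 0.14 ± 0.10 (adjusted p = 0.284). *Polr2b* lay at -0.16 (adjusted p = 0.223), the stalk subunits *Polr2d* at -0.17 (adjusted p = 0.12, or 0.0251 with the replicates paired, over a range of 0.0251 to 0.475) and *Polr2g* at -0.12 (adjusted p = 0.177), and *Polr2i* at -0.08 (adjusted p = 0.613). *Polr2m*, the accessory Gdown1 subunit, was below in every EpCAM+ library (301 to 319 CPM against 327 to 363 CPM), yet its difference of -0.13 gave an adjusted p of 0.128. Across all 3 enzymes, 1 of 6 genes of the catalytic pairs was lower (*Polr1b*, 16.7%) and 13 of the other 22 members were (59.1%). The share of the catalytic pairs is near the 20.8% of all genes tested and below the 27.9% of protein-coding genes of at least 10 CPM. That of the other members is above both. Whether these shares differ from each other was not tested.

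Polymerase III contributed 5 lower genes of 10, with a median log2 fold change of -0.22. This share, 50%, stands beside 20.8% of all genes tested and 27.9% of protein-coding genes of at least 10 CPM. *Polr3d* and *Polr3e* encode the dimer that resembles initiation factor TFIIF. *Polr3e* had 32.2, 33.8, 36.3 and 29.6 CPM in the EpCAM+ and 43.1, 43.7, 55.1 and 48.2 CPM in the EpCAM- libraries. EpCAM- replicate 3 was the highest, and no values overlapped (-0.53 ± 0.10, adjusted p = 0.00277). *Polr3d* ranged over 23.7 to 30.6 CPM against 31.1 to 43.4 CPM (-0.42 ± 0.12, adjusted p = 0.0173). That call was lost under library totals (adjusted p = 0.0553) and with both replicate 1 libraries left out, a setting chosen after seeing the data (0.0504), over a range of 0.00502 to 0.0553.

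*Polr3c*, *Polr3f* and *Polr3g* or *Polr3gl* form the heterotrimer that opens the promoter. *Polr3c* was lower (48.1 to 55.3 CPM against 59.3 to 64.2 CPM, -0.25 ± 0.07, adjusted p = 0.0179), a call lost without EpCAM+ replicate 3 (adjusted p = 0.0568) and under upper quartiles or library totals (0.0832 and 0.0822), over a range of 0.0068 to 0.0832. *Polr3f* lay at -0.11 (adjusted p = 0.345). *Polr3k*, a small subunit for RNA cleavage, was below in every EpCAM+ library (176 to 199 CPM against 205 to 229 CPM) with a log2 fold change of -0.18 and an adjusted p of 0.0578. It passed with the replicates paired (adjusted p = 0.0228) and with DESeq2 (0.0255), over a range of 0.0228 to 0.322. The catalytic subunits *Polr3a* (0.03, adjusted p = 0.846) and *Polr3b* (-0.19, adjusted p = 0.151) did not pass. Without EpCAM+ replicate 3 the count of lower *Polr3* genes was 3.

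*Polr3g* and *Polr3gl* are paralogs that take the same place in the enzyme; *Polr3g* is known for its high level in pluripotent and dividing cells and *Polr3gl* for its presence in most tissues. *Polr3g* had 15.8, 20.4, 17.4 and 20.1 CPM in EpCAM+ replicates 1 to 4 and 19.9, 23.5, 25.5 and 25.8 CPM in EpCAM- replicates 1 to 4. The fractions overlapped through EpCAM- replicate 1, and the log2 fold change was -0.36 ± 0.12 (adjusted p = 0.0356). *Polr3gl* had 13.5, 13.6, 12 and 15.7 CPM against 10.1, 10.4, 11 and 13.2 CPM. Each EpCAM+ library was above the EpCAM- library of its number, but the fractions overlapped and the difference of 0.29 ± 0.13 did not pass (adjusted p = 0.0994). *Polr3g* made up 54%, 60%, 59.2% and 56.2% of the counts of the pair in EpCAM+ replicates 1 to 4, and 66.3%, 69.4%, 69.9% and 66.2% in EpCAM- replicates 1 to 4. These shares did not overlap, and they do not depend on the scaling of the libraries. They do depend on length, and *Polr3g* is the longer gene in the table. Per kb of that length the ratio of *Polr3g* to *Polr3gl* was 0.477 to 0.609 in EpCAM+ and 0.796 to 0.94 in EpCAM- libraries, below 1 in each, and in the authors' FPKM it was 0.632 to 0.807 and 1.05 to 1.25. The *Polr3g* call was lost without EpCAM+ replicate 1 or 3 or EpCAM- replicate 2, 3 or 4 (adjusted p = 0.0895, 0.091, 0.054, 0.0885 and 0.0824). It was also lost under upper quartiles (0.0935), under library totals (0.0908) and with genes kept from 1 count in any library (0.0505), over a range of 0.012 to 0.0935. *Polr3gl* passed as higher under upper quartile scaling and library totals (adjusted p = 0.0393 and 0.0367, range 0.0367 to 0.248).

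**Figure D2:**
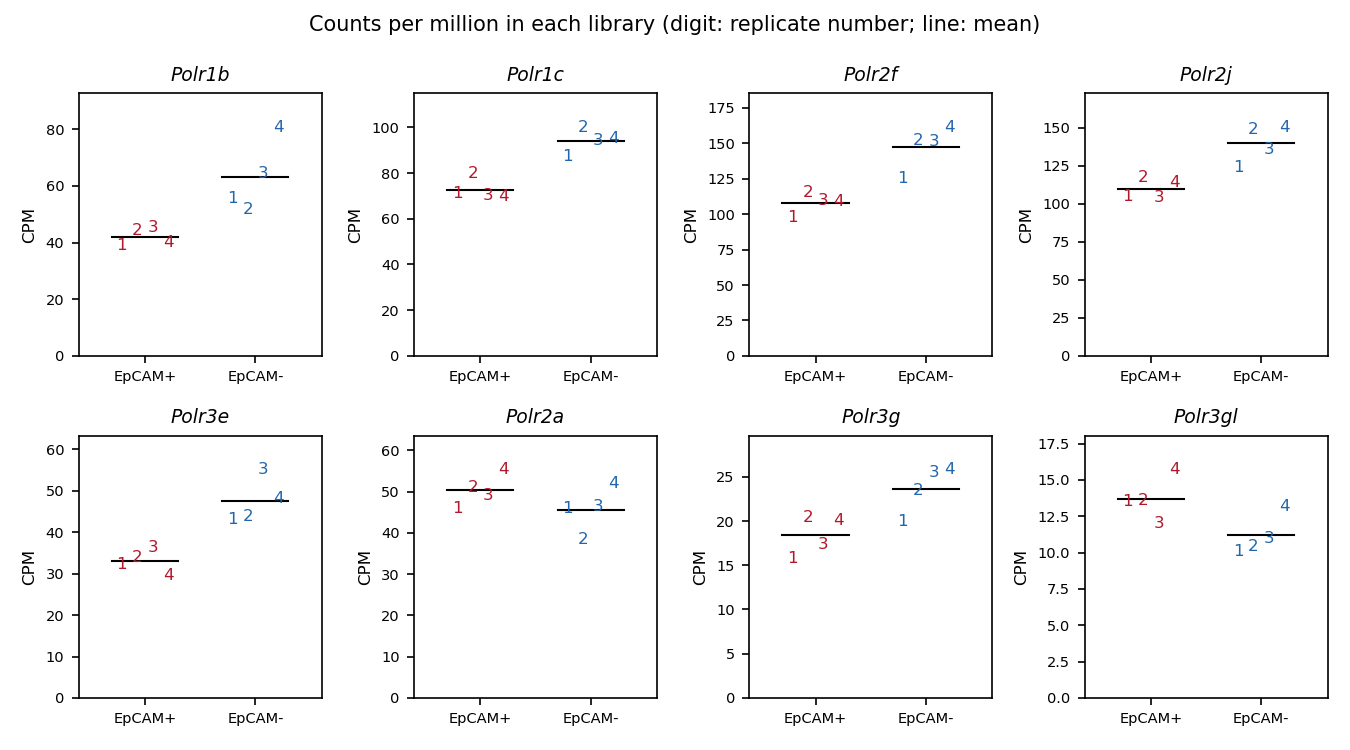
CPM (y axis, from 0) of 8 subunit genes in the EpCAM+ and EpCAM- libraries (x axis); digits are replicate numbers and lines are means over 4 libraries. *Polr1b*, *Polr1c*, *Polr2f*, *Polr2j* and *Polr3e* do not overlap between fractions, whereas *Polr2a*, *Polr3g* and *Polr3gl* do.

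Levels between genes were compared per kilobase of the length given in the table. In the EpCAM- fraction *Polr2g* was highest with 193 CPM per kb, followed by *Polr2m* with 141 CPM per kb and *Polr2j* with 126 CPM per kb. *Polr3a* with 2.71 CPM per kb, *Polr3f* with 2.98 CPM per kb and *Polr1a* with 3.49 CPM per kb were lowest. The order depends on the gene lengths: in the authors' FPKM, which use other lengths for 25 of the 28 genes, *Polr2m* had the highest mean, 249 FPKM in the EpCAM- fraction, and *Polr3a* the lowest, 6.45 FPKM.

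Summed over the genes of each number, the fractions did not overlap for *Polr1* and *Polr3* genes under TMM (the scaling of all CPM given here), RLE (median ratios), upper quartile or library total scaling, nor for *Polr2* genes under the first 2. The *Polr1* genes added up to 312, 332, 313 and 305 CPM in EpCAM+ replicates 1 to 4 and to 365, 406, 406 and 410 CPM in EpCAM- replicates 1 to 4. EpCAM- replicate 1 was the nearest to the EpCAM+ libraries. The *Polr2* genes added up to 1510 to 1660 CPM against 1690 to 1910 CPM, but overlapped under upper quartiles (1530 to 1720 against 1670 to 1880 CPM) and library totals (1530 to 1750 against 1710 to 1840 CPM). The *Polr3* genes added up to 454 to 489 CPM against 550 to 618 CPM. All 28 together took 0.229% to 0.261% of the counts in EpCAM+ and 0.263% to 0.278% in EpCAM- libraries.

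Some subunit genes share exon sequence with a gene on the opposite strand in GENCODE M21, whose coordinates equal those of the table for 26 of the 28. The overlap covered 26.8% of the *Polr2i* exons (with *Tbcb*), 18.1% of *Polr2c* (with *Dok4*) and 15.9% of *Polr2j* (with *Lrwd1*). Use of strand in the counting is not given in the sources used here, so reads of such partners cannot be told apart. A processed pseudogene, *Polr2k-ps*, held 7 counts over the 8 libraries.

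Lists of other transcription machinery genes are given with their share of lower genes, to be read beside the 20.8% of all genes tested and the 27.9% of protein-coding genes of at least 10 CPM. Their medians stand beside 0.02 and -0.07 for the same sets. The share was 70.6% for the general factors of polymerase II, 56.2% for assembly factors, 38.7% for Mediator and 32% for elongation factors. It was 26.7% for TFIID, 17.6% for factors of polymerase III, 16.7% for mitochondrial transcription and 14.3% for factors of polymerase I, all below 27.9% and the last 3 below 20.8% too. The counts behind the last 3 move with the settings, as given below. Of 4 tested polymerase subunits under other symbols, 2 were lower: *Cd3eap*, of polymerase I (-0.56, adjusted p = 0.00153), and *Crcp*, of polymerase III (-0.36, adjusted p = 0.00968). The other 2, named after their values were seen, did not pass: *Twistnb* lay at -0.10 (adjusted p = 0.368) and *Znrd1* at 0.11 (adjusted p = 0.349). The general transcription factors of polymerase II, which place the enzyme at promoters, were lower in 12 of 17 and higher in 0 (median -0.33), led by both TFIIF genes, *Gtf2f2* (-0.52, adjusted p = 0.000872) and *Gtf2f1* (-0.54, adjusted p = 0.00105), and the TFIIH kinase *Cdk7* (-0.43, adjusted p = 0.00163). The count of lower general factors was 8 under upper quartiles or library totals and 15 with the replicates paired. Factors that assemble or import the polymerases were lower in 9 of 16 and higher in 0 (median -0.28). Among them, the ATPases *Ruvbl2* and *Ruvbl1* lay at -0.72 (adjusted p = 0.000358) and -0.40 (adjusted p = 0.00155), and the GTPase *Gpn3* at -0.53 (adjusted p = 0.0025).

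TFIID genes were lower in 4 of 15 (median -0.14), with *Taf10* at -0.57 (adjusted p = 0.000679), *Taf5* at -0.54 (adjusted p = 0.00174) and *Taf12* at -0.54 (adjusted p = 0.00182). Mediator genes were lower in 12 of 31 (median -0.13), with *Med8* at -0.53 (adjusted p = 0.00124), *Med17* at -0.41 (adjusted p = 0.00353) and *Med30* at -0.34 (adjusted p = 0.00442); upper quartile scaling left 7. Of all genes tested 15.4% were lower under that scaling. Pausing and elongation factors were lower in 8 of 25 and higher in 1 (median -0.14): *Nelfa* lay at -0.40 (adjusted p = 0.000841), *Cdc73* at -0.41 (adjusted p = 0.0059), *Ctr9* at -0.27 (adjusted p = 0.00967) and *Tcea2* at 0.65 (adjusted p = 0.0162). Library totals left 4 of 25 lower, near the 15.2% of all genes tested that were lower under library totals.

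Factors of polymerase I were lower in 1 of 7, *Ubtf* (-0.31, adjusted p = 0.0118). DESeq2 gave 2 of 7, and leaving out EpCAM- replicate 1 or 2 gave 3 of 7. The paired fit also gave 3 of 7 of these factors, above the 24.7% of all genes tested that were then lower. Those of polymerase III were lower in 3 of 17, *Ssb* (-0.27, adjusted p = 0.0151), *Bdp1* (-0.33, adjusted p = 0.0345) and *Gtf3c4* (-0.38, adjusted p = 0.0355), and higher in 1, *Gtf3c1* (0.28, adjusted p = 0.0398). Under upper quartiles or library totals 0 of these were lower, and 1 was without EpCAM+ replicate 1 or 4 or EpCAM- replicate 3. Of 6 mitochondrial transcription genes *Tfb2m* was lower (-0.32, adjusted p = 0.0239); the count was 0 under upper quartiles, library totals or without EpCAM+ replicate 1 or EpCAM- replicate 3 or 4, and 2 without EpCAM+ replicate 2 or EpCAM- replicate 1 or 2. Products of polymerase III were hardly seen by these libraries: of 8 genes only *Rn7sk* was tested (1.00, adjusted p = 0.0546).

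Of 10 cell cycle genes 6 were lower in EpCAM+ cells (60%, beside 20.8% of all genes tested and 27.9% of protein-coding genes of at least 10 CPM; median -0.33), with *Rrm2* at -0.71 (adjusted p = 0.000808), *Mcm5* at -0.42 (adjusted p = 0.00181) and *Mcm2* at -0.41 (adjusted p = 0.00299). The other 4, named after their values were seen, did not pass: *Mki67*, a marker of dividing cells, lay at -0.12 (adjusted p = 0.341), *Top2a* at -0.10 (adjusted p = 0.297), *Pcna* at -0.16 (adjusted p = 0.13) and *Tyms* at -0.04 (adjusted p = 0.727). The part of cell cycle genes in the lower subunit levels was not tested.

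The marker lists of blood and other cells that follow are short, and their counts are to be read beside the 20.8% of all genes tested that were lower and the 21.8% that were higher. In the neutrophil list 3 of 7 genes were lower in EpCAM+ cells, the early granule genes *Mpo*, *Elane* and *Prtn3*, and its levels summed to 1000, 1110, 1060 and 1570 CPM in EpCAM+ replicates 1 to 4 against 17100, 12000, 14000 and 10600 CPM in EpCAM- replicates 1 to 4, with *Mpo* the most abundant. The other 4, named after their values were seen, did not pass: *Camp* lay at -0.19 (adjusted p = 0.779), *Ltf* at -0.28 (adjusted p = 0.717), *S100a8* at -0.15 (adjusted p = 0.816) and *S100a9* at 0.17 (adjusted p = 0.727). The erythroid list was lower in 5 of 6 genes and summed to 63.1, 45.4, 88.1 and 219 CPM against 1900, 2180, 4870 and 6620 CPM, with *Car1* the most abundant. Early myeloid and erythroid progenitors express several genes of both lists. The mast cell and basophil list was lower in 3 of 5 (258 to 292 CPM against 393 to 669 CPM). Its most abundant gene was *Gata2* in EpCAM+ cells (mean 205 CPM, against 169 CPM in EpCAM- cells), which did not pass (0.28, adjusted p = 0.096), and *Cpa3* in EpCAM- cells (275 CPM, against 57 CPM in EpCAM+ cells).

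The list for stem and progenitor cells of the LSK gate was higher in 8 of 10 (2640 to 2840 CPM against 1400 to 2190 CPM, *Cd34* most abundant, itself not passing at 0.28 with an adjusted p of 0.104). Plasma cell genes were higher in 2 of 6 (2 not tested), at 3960, 449, 668 and 384 CPM in EpCAM+ and 254, 256, 243 and 169 CPM in EpCAM- replicates 1 to 4, with EpCAM+ replicate 1 far above the rest. *Jchain* was the most abundant in EpCAM+ cells (mean 1090 CPM, against 0.131 CPM in EpCAM- cells). Nearly all of the EpCAM- sum was *Xbp1* (means 238 CPM in EpCAM+ and 225 CPM in EpCAM- cells), which did not pass (adjusted p = 0.767). T cell genes were higher in 2 of 7, *Lck* and *Cd4*, and the other 5 had too few counts to be tested. The list summed to 52.6 to 66.9 CPM against 17.1 to 29.1 CPM, nearly all of it *Lck* (means 55.4 and 21.9 CPM), with *Cd3e* at 0 in all EpCAM- libraries. B cell genes were higher in 2 of 7, with 3 not tested (75.6 to 124 CPM against 48.4 to 82.4 CPM, *Cd79b* most abundant but not passing with an adjusted p of 0.12, *Pax5* at 0 in all libraries). Dendritic cell genes were higher in 4 of 7, with 1 not tested, and *Flt3*, the most abundant, is also among the 8 higher genes of the LSK list. They summed to 1120, 453, 652 and 1130 CPM in EpCAM+ and 539, 548, 415 and 347 CPM in EpCAM- replicates 1 to 4. EpCAM+ replicates 1 and 4 were above the rest and EpCAM+ replicate 2 lay within the EpCAM- range. *Xcr1* had 147, 11.5, 35.8 and 131 CPM in the EpCAM+ libraries and at most 0.811 CPM in an EpCAM- library. Epithelial genes were higher in 4 of 6, with 2 not tested (357 to 431 CPM against 79.9 to 113 CPM, *Epcam* most abundant in EpCAM+ and *Krt18* in EpCAM- cells, *Krt19* at 0 in all libraries). This list holds *Epcam*, the gene of the protein the cells were sorted on. Without it 3 of 5 were higher, and the sum was 186 to 210 CPM against 78.5 to 104 CPM.

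Lineage antibody targets were higher in 2 of 7 and lower in 1, with 3 not tested (173 to 251 CPM against 183 to 202 CPM, *Ptprc* most abundant). *Ptprc* counts cover all forms of CD45, which blood cells share, and not only the B220 form that the antibody binds. The other higher gene was *Cd4*. Without *Ptprc* the list had 6 genes, of which 3 were tested, 1 was higher and 1 lower. Its sum was then 5.22 to 7.72 CPM in EpCAM+ against 35.4 to 64.5 CPM in EpCAM- libraries, without overlap. Of this list *Cd3e*, *Cd4* and *Cd8a* are also on the T cell list. Monocyte genes were higher in 1 of 6 and lower in 2 (640 to 953 CPM against 507 to 1270 CPM, *Lyz2* most abundant), and megakaryocyte genes higher in 1 of 6 (134 to 375 CPM against 87.4 to 298 CPM, *Pf4* most abundant, not passing with an adjusted p of 0.88). The part of these cell types in the subunit results was not tested, and in bulk RNA fewer cells of a type and less RNA per cell cannot be told apart. With both replicate 1 libraries left out, an alternative chosen after seeing the data because of the plasma cell and *Epcam* counts above, 13 of 28 subunit genes were lower.

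Promoter sequences from RefSeq (GRCm38.p6) were found for 22 of the 28 genes, in 24 windows. Those without an entry include *Polr2d*, *Polr2g*, *Polr2k*, *Polr3a* and *Polr3d*. Both strands were searched for 5 motifs, chosen after the fold changes were known. CCGGAA, the core bound by ETS factors, was in 45.8% of the windows against 14.9% of all 32851 promoter windows. The E-box CACGTG was in 16.7% against 7.15%, the E-box CACCTG of the type bound by ZEB1 in 20.8% against 20.2%, and TATAAA in 8.33% against 13.6%. GTTCGANNC, the core of the B box of transfer RNA genes, was taken from the *Polr3e* window itself, so its share of 12.5% against 0.843% restates that window in part. Without *Polr3e* it was in 8.7%, the windows of *Polr1b* and *Polr2j*. The 32851 windows include 21263 of protein-coding genes. The subunit genes are all protein-coding, and motif shares for protein-coding windows alone were not computed. No matches of different motifs overlapped. A match is a description and not a site.

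The *Polr3e* window is shown because it holds part of a leucine transfer RNA gene, itself a polymerase III gene, which RefSeq places at chr7:120917517-120917598. A transfer RNA gene reached into 5 of 21263 promoter windows of protein-coding genes, and into 1 of the 24 here. The windows of *Polr2f*, the common subunit with the largest difference, and of the paralogs *Polr3g* and *Polr3gl* are shown beside it. They lie at chr7:120917528-120917827 (*Polr3e*, plus strand), chr15:79141075-79141374 (*Polr2f*, plus), chr13:81710964-81711263 (*Polr3g*, minus) and chr3:96594132-96594431 (*Polr3gl*, minus), each across the start of its gene as annotated by RefSeq, written 5′ to 3′. Capitals mark the ETS core, the first of the E-boxes named above and the B box core, on either strand.
*Polr3e*: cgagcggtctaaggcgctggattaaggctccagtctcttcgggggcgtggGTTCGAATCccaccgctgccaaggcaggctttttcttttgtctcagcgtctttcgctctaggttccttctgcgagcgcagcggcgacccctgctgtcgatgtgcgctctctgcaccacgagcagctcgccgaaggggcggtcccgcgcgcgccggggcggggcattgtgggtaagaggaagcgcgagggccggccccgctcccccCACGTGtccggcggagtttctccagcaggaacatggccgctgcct
*Polr2f*: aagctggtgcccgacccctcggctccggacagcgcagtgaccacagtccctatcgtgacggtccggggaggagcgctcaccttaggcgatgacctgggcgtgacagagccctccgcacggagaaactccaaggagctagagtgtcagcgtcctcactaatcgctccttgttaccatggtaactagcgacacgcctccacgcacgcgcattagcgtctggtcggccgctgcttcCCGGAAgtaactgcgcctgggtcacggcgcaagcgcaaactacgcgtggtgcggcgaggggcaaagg
*Polr3g*: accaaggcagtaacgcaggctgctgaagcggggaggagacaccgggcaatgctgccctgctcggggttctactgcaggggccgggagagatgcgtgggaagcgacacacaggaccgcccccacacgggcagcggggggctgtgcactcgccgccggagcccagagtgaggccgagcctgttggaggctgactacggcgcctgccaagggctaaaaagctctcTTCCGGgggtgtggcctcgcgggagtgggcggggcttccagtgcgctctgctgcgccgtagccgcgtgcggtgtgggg
*Polr3gl*: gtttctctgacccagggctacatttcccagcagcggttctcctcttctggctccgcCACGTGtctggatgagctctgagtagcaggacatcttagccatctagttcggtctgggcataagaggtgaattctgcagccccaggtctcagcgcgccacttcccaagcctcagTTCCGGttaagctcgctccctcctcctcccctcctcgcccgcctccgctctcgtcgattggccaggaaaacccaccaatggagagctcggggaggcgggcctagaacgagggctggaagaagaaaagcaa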

How the data were processed

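The authors amplified total RNA with SMART-Seq v4, sequenced it as 150-bp paired-end reads and, per the submitters' processing notes, used STAR 2.6.1d, featureCounts 1.5.0-p3 and DESeq2 1.20.0 with GRCm38.p6. The deposited counts are whole reads per gene without normalization, and all tests use them. The deposited FPKM were computed by the authors from these counts, with gene lengths that differ from the length column for 25 of the 28 members. They were used only for the order of levels and the ratio of *Polr3g* to *Polr3gl*. The gene length column (other) is as deposited. Another 15 columns hold the authors' own comparisons (fold change, p and adjusted p, between the fractions and within 4 pairs of single libraries) and were not used.

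R 4.3.3 was used with edgeR 4.0.16 (filterByExpr, TMM scaling, two-sided quasi-likelihood test, Benjamini-Hochberg adjustment, threshold 0.05), limma 3.58.1 and DESeq2 1.42.0, and Python 3.11.15 with matplotlib 3.10.9; the test code was tested on simulated data. Standard errors were derived from the F statistic. No 2 libraries of a fraction agreed within sampling noise (chi-square per degree of freedom at least 10.2). Same-numbered libraries deviated together (correlations 0.205 to 0.356, against -0.216 to 0.0396 for other pairs), so the replicate number may pair the samples. The main fit did not use this pairing, and a fit with it was an alternative. Per the labels there were 4 mice per genotype, without a statement of which mouse gave which library, so p-values measure the spread between libraries. Outside the subunit genes, named genes are the up to 3 lower and 3 higher per list with the smallest adjusted p, and the most abundant or absent markers. Genes said to be named after their values were seen come on top of these. Members and lists were chosen with earlier results of these data known. The values of 1 member and 1 marker are not reported here, though counts, medians and sums include them.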

Additional observations from a re-analysis of the deposited data

Results flagged for a closer look

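Among 98 groups of 4 libraries examined, 9 had a library far from the other 3, where chance gives about 1 in 20. For the subunit genes, these were *Polr1c* in EpCAM+ replicate 2 (79.9 CPM, the others 69.9 to 71.1 CPM), *Polr1e* in EpCAM+ replicate 4 (45.6 CPM, the others 54.3 to 55 CPM) and *Polr2k* in EpCAM- replicate 2 (79.5 CPM, the others 59.2 to 61.6 CPM). EpCAM- replicate 1 stood below its fraction in the summed *Polr1* level (365 CPM, the others 406 to 410 CPM) and in the share of counts from all subunit genes (0.263%, the others 0.276% to 0.278%), and above it in the lineage antibody targets (202 CPM, the others 183 to 186 CPM). EpCAM+ replicate 1 stood apart in plasma cell genes (3958 CPM, the others 384 to 668 CPM) and in the mitochondrial share of counts (0.413%, the others 0.511% to 0.529%), and EpCAM- replicate 4 in plasma cell genes (169 CPM, the others 243 to 256 CPM).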

How the results depend on the processing

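All 16 alternative settings kept the median of the subunit genes below 0, and no called gene changed direction. With upper quartile scaling 8 subunit genes were lower and 1 higher, with 2 of 13 *Polr2* and 3 of 10 *Polr3* genes lower and a median of -0.14. With library totals 6 were lower and 1 higher, with a median of -0.14. Lower then were 2 of 5 *Polr1*, 2 of 13 *Polr2* and 2 of 10 *Polr3* genes. Of all genes tested 15.4% were lower under upper quartiles and 15.2% under library totals. The *Polr2* counts under both scalings were thus near the share of all genes. These scalings moved the median of all genes by 0.09 and 0.08, and the share of higher calls from 51.2% to 63.6% and 62.7%. Leaving out 1 library at a time gave 10 to 15 lower subunit genes, 3 to 5 lower *Polr3* genes, 4662 to 6039 genes called in all and a median of -0.27 to -0.21. With the replicate block 17 subunit genes were lower and 6818 genes were called. *Polr2d*, *Polr2h* and *Polr3k* then passed (adjusted p = 0.0251, 0.0231 and 0.0228, ranges as given above), and the paired fit changed no other call among the subunit genes. *Polr3k* also passed with DESeq2 and *Polr2h* without EpCAM- replicate 1. *Polr1b*, *Polr1c*, *Polr2f*, *Polr2j* and *Polr3e* passed in each of these settings. The cause of these shifts was not tested.

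The 4 libraries per fraction limit what differences of this size can pass, and a p above the threshold does not show equal levels. The libraries were amplified from little RNA, so counts carry amplification error. Levels are relative to all RNA of a library; RNA per cell was not measured.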
